A study of Mus musculus with 12 samples.

Results

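The 4 RNA-Seq libraries of batch 1 that were labelled siSbsn or no siRNA were compared, 2 of each, out of 12 libraries in the series. They were chosen by their treatment and batch labels alone. All came from primary keratinocytes of BALB/c neonatal mice, grown at 0.05 mM calcium and brought to a final 0.12 mM to start differentiation. The siSbsn wells received 75 pmol of a pool of siRNAs against *Sbsn* with the HiPerfect transfection reagent, with RNA collected 48 hours later. The no siRNA wells carry only that label, and no source used here says whether they received the transfection reagent. Each library carries the number 1 or 2 in its title. The labels do not say what the number marks, nor whether equal numbers share a mouse, a culture or a day, so the spread between libraries may be technical. The question was what the siRNA against *Sbsn* changed relative to cultures labelled no siRNA.

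Suprabasin, the product of *Sbsn*, is a secreted protein of the upper epidermis and a proposed precursor of the cornified envelope, the cross-linked protein shell of dead surface cells. Keratinocytes differentiate in order: basal cells express *Krt5* and *Krt14*, the first suprabasal cells switch to *Krt1* and *Krt10*, and later cells make envelope proteins such as involucrin, loricrin and filaggrin while assembling cholesterol, ceramides and fatty acids into a water barrier. Raised calcium starts this sequence in culture. An siRNA guides the RNA-induced silencing complex to a matching mRNA, so the level of *Sbsn* itself tells whether a library carries the knockdown that its label states.

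*Sbsn* lies at chr7:30751471-30756134 on the + strand of mm10, beside *Dmkn* (dermokine) at chr7:30763756-30781066 and *Krtdap* (keratinocyte differentiation associated protein) at chr7:30787905-30791083. All 3 encode secreted proteins of the suprabasal epidermis. Their RefSeq promoters (GRCm38.p6, 250 bases before to 50 after the gene start) are shown because the neighbours were not targeted by the siRNA pool and serve as the local comparison. The motif TGANTCA is in capitals. It includes TGAGTCA and TGACTCA, the binding sequence of AP-1 (Fos and Jun dimers). TGAATCA and TGATTCA also match it but differ from that sequence in the middle base. TGANTCA reads the same on both strands apart from its middle base.
*Sbsn*, chr7:30751221-30751520, + strand: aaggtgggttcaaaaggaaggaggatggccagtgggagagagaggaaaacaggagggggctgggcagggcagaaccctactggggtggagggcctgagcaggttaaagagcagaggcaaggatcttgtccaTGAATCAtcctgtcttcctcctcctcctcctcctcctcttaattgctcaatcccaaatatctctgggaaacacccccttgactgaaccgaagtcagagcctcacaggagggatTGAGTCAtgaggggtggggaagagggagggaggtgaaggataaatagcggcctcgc
*Dmkn*, chr7:30763506-30763805, + strand: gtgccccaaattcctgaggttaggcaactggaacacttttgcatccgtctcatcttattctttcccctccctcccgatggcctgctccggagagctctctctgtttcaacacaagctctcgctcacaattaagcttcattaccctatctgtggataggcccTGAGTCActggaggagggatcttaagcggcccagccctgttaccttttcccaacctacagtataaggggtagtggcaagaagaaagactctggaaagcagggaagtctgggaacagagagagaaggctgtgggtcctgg
*Krtdap*, chr7:30787655-30787954, + strand: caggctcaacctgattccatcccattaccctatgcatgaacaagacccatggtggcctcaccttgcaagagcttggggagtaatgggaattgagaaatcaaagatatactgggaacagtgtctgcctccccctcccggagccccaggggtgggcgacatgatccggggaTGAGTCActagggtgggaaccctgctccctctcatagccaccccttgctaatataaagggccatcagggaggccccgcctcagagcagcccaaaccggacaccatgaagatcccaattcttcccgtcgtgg
The *Sbsn* window held the motif at 2 positions, beginning 119 and 6 bases before the gene start, and the windows of *Dmkn* and *Krtdap* held it once each, 89 and 81 bases before the start. The *Sbsn* match 119 bases before the start reads TGAATCA, and the other matches read TGAGTCA. Of all 32851 promoter windows of this length, 7.81% held TGANTCA with any middle base. A match describes the letters and does not show a binding site.

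Values are CPM, the deposited count of a locus scaled to the effective size of its library. Total counts ranged from 34745855 to 45056003 in the 4 libraries, and 1 count was worth between 0.0234 and 0.0308 CPM. *Sbsn* was at 1697 CPM in no siRNA 1 and 1231 CPM in no siRNA 2. It was at 1965 CPM in the library labelled siSbsn 1 and 696.5 CPM in the library labelled siSbsn 2. The library labelled siSbsn 1 thus had the highest *Sbsn* level of the 4, and the one labelled siSbsn 2 the lowest, so the groups overlapped. The targeted gene goes against the label of siSbsn 1, and every direction given below that uses that library rests on its label.

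The difference within each pair of equal number, labelled siSbsn minus no siRNA in log2(CPM + 0.5), is called pair 1 and pair 2. For *Sbsn* pair 1 was 0.21 and pair 2 was -0.82. The 2 siControl libraries of the same batch, which received a non-targeting siRNA pool, held 1189 and 1356 CPM. In edgeR's quasi-likelihood test of 2 against 2 libraries *Sbsn* had a log2-fold change of -0.14 (SE 0.52, Benjamini-Hochberg q = 0.9998). Without the library labelled siSbsn 1 the log2-fold change was -1.07 (SE 0.30), and without the one labelled siSbsn 2 it was 0.42 (SE 0.29), with edgeR q = 0.9999 and q = 0.9876. In batch 2 the 3 siSbsn libraries held 121.1 to 124.9 CPM and the 3 siControl libraries 331.8 to 458.6 CPM, a log2-fold change of -1.64 (SE 0.10, edgeR q = 0.00056).

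The neighbours did not share this pattern. *Dmkn* was at 4403 and 2662 CPM without siRNA and at 4989 and 3279 CPM in the libraries labelled siSbsn, with pairs of 0.18 and 0.30. *Krtdap* was at 933 and 379 CPM without siRNA and at 1171 and 578 CPM in those labelled siSbsn, with pairs of 0.33 and 0.61. Both were higher in the labelled siSbsn library of each pair, and for both the 2 groups overlapped.

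**Figure D1:**
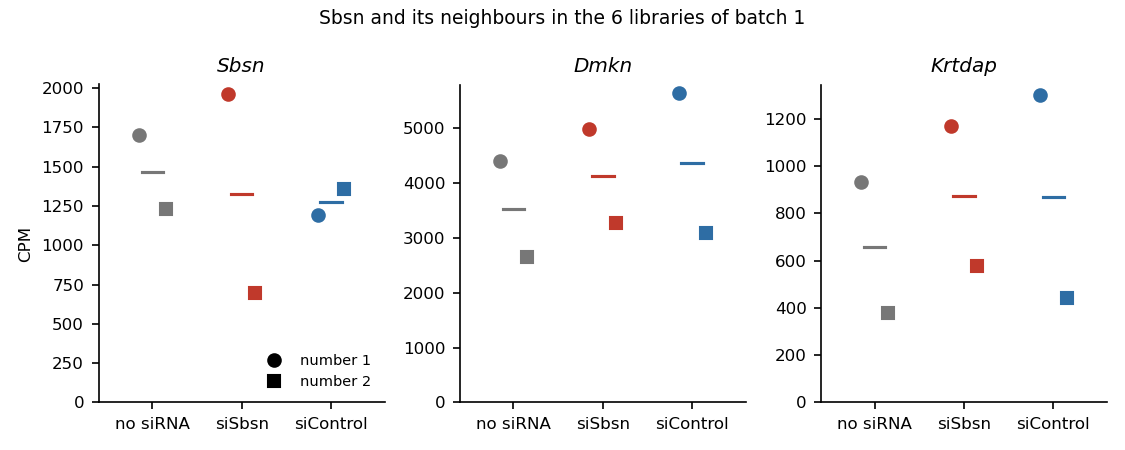
CPM (linear axis from 0) of *Sbsn*, *Dmkn* and *Krtdap* in the 6 libraries of batch 1, with circles for number 1, squares for number 2 and a short line for the mean of each condition. The library labelled siSbsn 2 lies lowest for *Sbsn* at 696.5 CPM, while the library labelled siSbsn 1 lies highest at 1965 CPM.

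Across the 13141 loci that passed the filter on low counts, the test without the pairing called 0 loci higher and 0 lower (0.0% each) with q under 0.05 and a log2-fold change beyond 0.5 either way, and the smallest q was 0.9998. At an unadjusted p under 0.05 there were 45 loci, or 0.342% of those tested. DESeq2 and limma-voom also called 0, with 21 and 48 loci at an unadjusted p under 0.05. An exact permutation test of 2 against 2 libraries cannot give a two-sided p below 0.3333, so single loci are given as values.

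Most of the variation among the 4 libraries lay between the numbers. Of the sum of squares over all loci tested, 76.2% fell to number 1 against number 2, 16.1% to labelled siSbsn against no siRNA and 7.68% to their interaction. At a mean of at least 5 CPM, 1242 of 9713 loci differed by more than 0.5 (log2) between the numbers on average over both conditions, and 100 did so between the conditions. The SD of the log2 difference over loci was 0.20 between the libraries of pair 1 and 0.23 between those of pair 2. Between the 2 no siRNA libraries it was 0.40, and between the 2 labelled siSbsn libraries also 0.40.

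The 4 libraries can be ordered in 24 ways, and 2 mirror-image orders led the 9713 loci with a mean of at least 5 CPM. The order siSbsn 1, no siRNA 1, siSbsn 2, no siRNA 2 from low to high was found at 2360 loci (24.3%), and the reverse order at 2342 loci (24.1%). The next most frequent order held 762 loci (7.84%). The library labelled siSbsn 1 and the no siRNA 2 library were the opposite ends of the row at 54.9% of these loci. Of the 4338 loci higher in both pairs, 76.6% were also higher in number 1 in both conditions, beside 41.3% of all loci tested. Of the 4191 lower in both pairs, 74.1% were also lower in number 1 in both conditions, beside 40.2% of all.

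**Figure D2:**
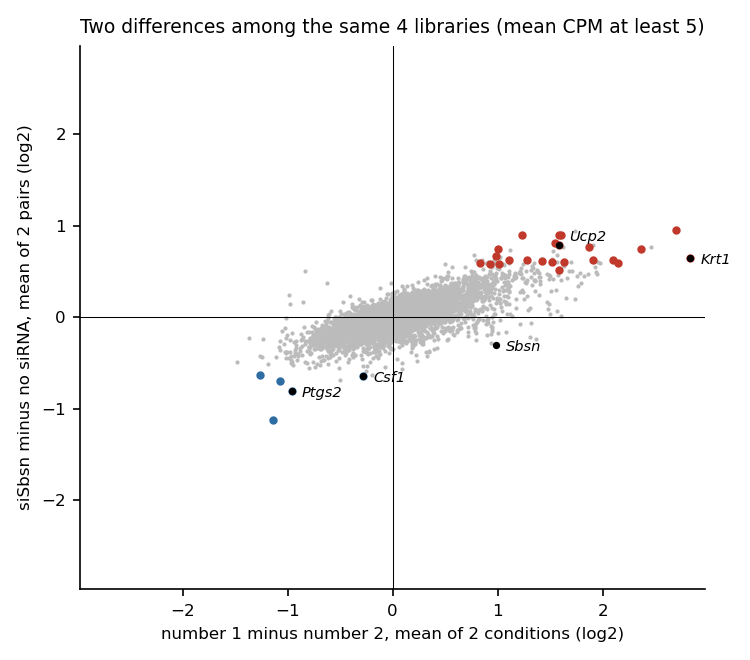
Each grey point is a locus with a mean of at least 5 CPM, with the mean difference of number 1 minus number 2 over the 2 conditions on the x axis and the mean difference of labelled siSbsn minus no siRNA over the 2 pairs on the y axis (both log2, equal scales). Red and blue points are loci over 0.5 higher or lower in both pairs, and black points are the labelled genes. The cloud is wider along the x axis, with 1242 loci past 0.5 against 100 along the y axis, and the red points lie to the right of 0.

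Both pairs were higher at 33.0% and lower at 31.9% of all loci tested, and these shares are the background for every list below. The stricter count, both pairs past 0.5 in the same direction, held 44 loci higher (0.335%) and 23 lower (0.175%). All 44 of the higher loci were also higher in number 1 than in number 2 in both conditions, with number differences between 0.08 and 2.83. Of the 23 lower loci, 17 were lower in number 1 in both conditions and 5 were higher. At a mean of at least 5 CPM there were 23 of the 44 and 5 of the 23. No locus had opposite pairs both over 1, and at 0.5 there were 2 with pair 1 higher and 1 with pair 1 lower.

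**Figure D3:**
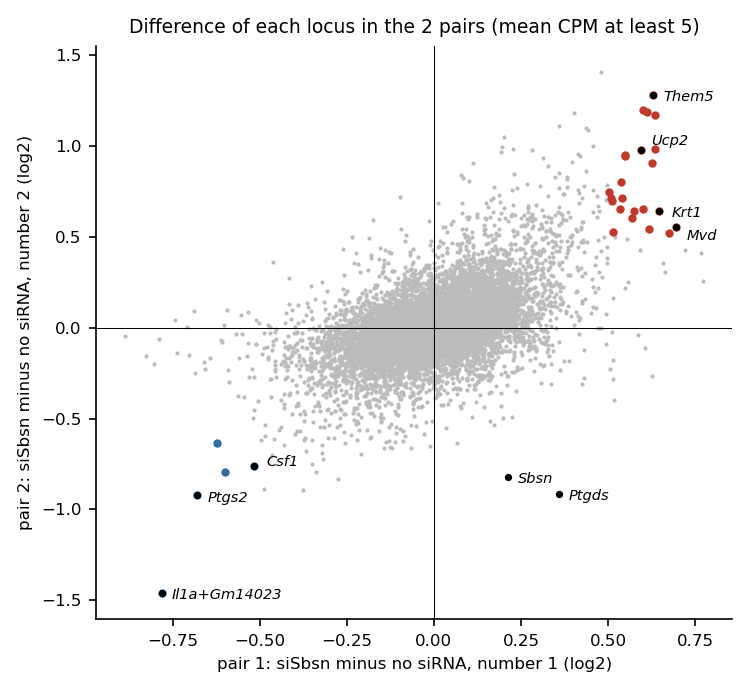
Pair 1 (x axis) against pair 2 (y axis), each as labelled siSbsn minus no siRNA in log2(CPM + 0.5), for the 9713 loci with a mean of at least 5 CPM. The 23 loci over 0.5 in both pairs stand in red or under a black labelled dot at the upper right and the 5 below -0.5 in both in blue or black at the lower left, while *Sbsn* (0.21, -0.82) and *Ptgds* (0.36, -0.91) stand apart at the lower right.

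Loci at which both libraries labelled siSbsn lay beyond both no siRNA libraries, with a mean difference over 0.5, numbered 23 higher (0.175%) and 53 lower (0.403%). Only 1 of the higher and 9 of the lower had a mean of at least 5 CPM, and most of these are described first. Other genes named below are list members or were named after their values were seen. None of these passed the edgeR test without the pairing (q = 0.9998 or above).

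The separated loci on the lower side included genes of secreted factors, a receptor and a prostaglandin enzyme. *Csf1* (chr3:107741048-107760469), the macrophage colony-stimulating factor, was at 76.5 and 101.5 CPM without siRNA and at 53.4 and 59.7 CPM in those labelled siSbsn. Its log2-fold change was -0.66 (SE 0.18), and the 2 labelled siSbsn libraries lay closer together than the 2 without siRNA. *Mmp13* (chr9:7272514-7283333), a collagenase, was at 6.79 and 9.48 CPM and at 5.12 and 4.87 CPM, a log2-fold change of -0.71 (SE 0.23). *Procr* (chr2:155751217-155755478), the endothelial protein C receptor, was at 7.52 and 9.70 CPM and at 5.45 and 6.03 CPM, a log2-fold change of -0.59 (SE 0.21). Beside them stood *Hpgd*, which degrades prostaglandins, with pairs of -0.27 and -0.83.

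Other separated genes with a mean of at least 5 CPM included regulators and signalling genes. *Hmga2*, a chromatin protein of growing cells counted together with 2 clone transcripts at its locus, was at 25.7 and 33.4 CPM without siRNA and at 18.5 and 20.4 CPM in those labelled siSbsn. *Sox11*, a transcription factor, was at 12.8 and 14.2 CPM and at 10.04 and 7.98 CPM. *Bcl2l15*, a member of the BCL2 family, was at 144.0 and 234.6 CPM and at 102.6 and 126.5 CPM. *Dock4*, an activator of Rac, had pairs of -0.46 and -0.61. The single separated gene on the higher side with a mean of at least 5 CPM was *Irx4*, a homeobox transcription factor. It was at 5.93 and 2.98 CPM without siRNA and at 6.84 and 6.29 CPM in those labelled siSbsn. Its pairs of 0.19 and 0.97 show that most of this difference lay in number 2.

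The promoters of *Mmp13*, *Procr* and *Plaur* are shown because these 3 genes lie on the lower side together and each window holds TGANTCA. The motif is again in capitals and reads TGACTCA in all 3. These genes were chosen after their values and windows were seen, so the presence of the motif in them was fixed by the choice. *Plaur* encodes the urokinase receptor of the plasminogen system.
*Mmp13*, chr9:7272264-7272563, + strand: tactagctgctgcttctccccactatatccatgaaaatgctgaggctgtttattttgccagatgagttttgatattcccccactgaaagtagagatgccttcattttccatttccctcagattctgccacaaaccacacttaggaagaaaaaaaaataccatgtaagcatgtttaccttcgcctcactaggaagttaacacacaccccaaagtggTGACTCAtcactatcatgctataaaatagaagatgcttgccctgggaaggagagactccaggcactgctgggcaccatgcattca
*Procr*, chr2:155750967-155751266, + strand: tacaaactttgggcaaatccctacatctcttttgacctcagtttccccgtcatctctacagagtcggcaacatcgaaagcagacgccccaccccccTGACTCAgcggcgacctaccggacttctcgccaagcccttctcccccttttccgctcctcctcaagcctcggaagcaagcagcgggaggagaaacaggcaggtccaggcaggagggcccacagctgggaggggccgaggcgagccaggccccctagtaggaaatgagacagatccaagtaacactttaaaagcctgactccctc
*Plaur*, chr7:24462233-24462532, + strand: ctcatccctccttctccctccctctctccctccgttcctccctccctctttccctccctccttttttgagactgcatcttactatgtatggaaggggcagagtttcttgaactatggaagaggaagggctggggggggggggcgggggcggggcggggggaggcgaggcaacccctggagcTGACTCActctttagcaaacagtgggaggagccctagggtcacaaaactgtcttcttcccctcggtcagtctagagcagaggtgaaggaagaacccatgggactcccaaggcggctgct
The motif began 35, 154 and 69 bases before the start of *Mmp13*, *Procr* and *Plaur*. The *Il1a* window, on the - strand of chromosome 2, held it 12 bases before the start, and the windows of *Csf1* and *Ptgs2* did not hold it. Of the separated loci on the lower side 36 genes had a promoter in the table and 8 of them (22.2%) held the motif, and of those on the higher side 3 of 14 (21.4%) held it. Over all tested loci 6.64% of 10868 genes held it, counting a gene once if any of its windows did. Of the loci past 0.5 in both pairs, 3 of 30 genes on the higher side and 2 of 20 on the lower side held it. Only 9 of the 53 separated loci on the lower side had a mean of at least 5 CPM, and no test was run on these shares.

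Of the cytokine list, secreted proteins through which keratinocytes recruit and activate immune cells, 26 loci were tested. Only 12 of the 26 had a mean of at least 5 CPM. In both pairs 14 of the 26 were lower and 4 higher. The medians were -0.09 in pair 1 and -0.46 in pair 2, beside 0.00 over all loci in each. The test without the pairing called none. Of the 26, 5 were separated on the lower side, beside 0.403% of all loci, and 2 were lower by over 0.5 in both pairs, *Csf1* and *Il1a*. In pair 2 alone, which leaves out the library labelled siSbsn 1, the median stands at that -0.46.

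*Il1a*, the interleukin that stressed keratinocytes release, was counted together with *Gm14023* and was at 45.1 and 126.9 CPM without siRNA and at 26.0 and 45.9 CPM in the libraries labelled siSbsn. The 2 groups overlapped narrowly, since the library labelled siSbsn 2 lay above no siRNA 1. The pairs were -0.78 and -1.46. *Lif*, a cytokine of the interleukin 6 family, was at 32.1 and 58.5 CPM and at 22.6 and 37.9 CPM, with pairs of -0.50 and -0.62. The neutrophil chemokine *Cxcl1* had pairs of -0.49 and -1.21, *Il23a* of -0.46 and -0.93, *Tnf* of -0.34 and -1.05, and *Ccl20* of -0.28 and -0.89. All 4 were under 10 CPM in each of the 4 libraries. The other separated members were at 0.313 to 1.43 CPM (*Cxcl5*, *Il1f6*, *Il24* and *Cxcl3*).

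Not all cytokines lay on that side. *Il18*, an inflammasome product, was at 22.1 and 9.84 CPM without siRNA and at 29.0 and 17.7 CPM in those labelled siSbsn, with pairs of 0.38 and 0.82. *Tslp*, the lymphopoietin of atopic skin, was at 213.5 and 77.2 CPM and at 280.2 and 109.5 CPM, with pairs of 0.39 and 0.50. *Il33*, the most abundant single-gene member, was at 391.5 and 283.0 CPM and at 386.9 and 347.5 CPM. For all 3 the groups overlapped. The cytokines on the higher side were higher in number 1, and *Il1a*, *Lif*, *Cxcl1*, *Il23a*, *Tnf* and *Ccl20* were lower in number 1, in both conditions.

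*Ptgs2*, the inducible cyclooxygenase of prostaglandin synthesis, is in none of the lists and was chosen after its values were seen. It was at 380.2 and 807.0 CPM without siRNA and at 237.2 and 425.8 CPM in the libraries labelled siSbsn. Each labelled siSbsn library was lower than its partner, by 0.68 and 0.92 on the log2 scale, but siSbsn 2 exceeded no siRNA 1.

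Of the plasminogen and matrix protease list 17 loci were tested, and 7 were lower and 6 higher in both pairs, close to the background. Of the 17, 3 were separated on the lower side, beside 0.403% of all loci, among them *Mmp13* and the joint *Mmp12* and *Mmp1b* locus. *Plaur* was at 50.2 and 73.4 CPM without siRNA and at 38.7 and 48.0 CPM in those labelled siSbsn, lower in both pairs by 0.37 and 0.61. The activators gave other values. *Plau*, the urokinase, had pairs of 0.07 and 0.21, and *Plat*, the tissue activator, was at 36.5 and 15.2 CPM and at 42.9 and 21.7 CPM. *Serpinb2*, an abundant serpin of keratinocytes, had pairs of -0.08 and 0.18.

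Feedback genes of the ERK kinase pathway lay mostly on the lower side. Of 16 tested, 13 were lower and 1 higher in both pairs, with medians of -0.14 and -0.22 and with none called without the pairing. *Phlda1* had pairs of -0.24 and -0.59, *Etv4* of -0.41 and -0.47 and *Spry4* of -0.21 and -0.70. *Dusp6* was at 56.3 and 44.1 CPM without siRNA and at 55.7 and 41.8 CPM in those labelled siSbsn. Of the 18 AP-1 and immediate early genes, 6 were lower and 4 higher in both pairs. Of 22 loci of the TGF-beta, YAP and matrix list, 16 were lower and 2 higher in both, with medians of -0.08 and -0.25. *Thbs1*, thrombospondin 1, was at 1613 and 1484 CPM and at 1300 and 1041 CPM, with both libraries labelled siSbsn below both without siRNA but a mean difference under 0.5. *Inhba*, the activin subunit, had pairs of -0.56 and -0.37.

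Genes of the cell cycle and DNA replication were lower by small amounts in both pairs. Of 40 loci tested, 31 were lower and 3 higher in both, with medians of -0.12 and -0.19. *Mki67* was at 81.9 and 103.3 CPM without siRNA and at 65.2 and 83.5 CPM in those labelled siSbsn, with pairs of -0.33 and -0.31. *Top2a* was at 82.1 and 78.9 CPM and at 67.3 and 66.7 CPM, with no overlap and pairs of -0.29 and -0.24. *Ccnb1* had pairs of -0.37 and -0.36. *Pcna* had pairs of 0.13 and -0.14. Of the 24 targets of p53 and CDK inhibitors, 7 were lower and 6 higher in both, and *Cdkn1a* had pairs of -0.01 and 0.12. The median over the cell cycle list was -0.02 for number 1 minus number 2, but its members differed between the numbers. In both conditions 13 of the 40 were higher and 19 lower in number 1. The library labelled siSbsn 1 and no siRNA 2 were the opposite ends at 52.5% of the list, beside 54.9% of loci with a mean of at least 5 CPM.

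The enzymes of cholesterol synthesis lay on the higher side almost without exception. Of 26 loci tested, 25 were higher in both pairs and 1, the joint *Dhcr7* locus, was lower in both. The medians were 0.36 in pair 1 and 0.42 in pair 2, and the test without the pairing called none. The same 25 loci had the order no siRNA 2, siSbsn 2, no siRNA 1, siSbsn 1 from low to high, so the 2 groups overlapped at each. The list was also higher in number 1, by a median of 1.14, which is larger than either pair. Its median log2-fold change over the 2 against 2 libraries was 0.35. It was 1.08 without no siRNA 1, 0.82 without the library labelled siSbsn 2, -0.09 without no siRNA 2 and -0.33 without the library labelled siSbsn 1, so the sign depended on which library was left out.

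The pathway can be followed by step. *Hmgcs1*, which makes its first dedicated intermediate, was at 443.0 and 159.5 CPM without siRNA and at 556.4 and 220.8 CPM in the libraries labelled siSbsn. The 3 enzymes that turn mevalonate into isoprene units had these pairs: *Mvk* 0.36 and 0.51, *Pmvk* 0.51 and 0.72, and *Mvd* 0.70 and 0.55. *Mvd* was at 40.6 and 11.02 CPM and at 66.0 and 16.4 CPM. *Sqle*, the squalene epoxidase, had pairs of 0.30 and 0.42. The regulator *Insig1*, itself a target of the sterol-sensing factor SREBP2, was at 38.0 and 13.3 CPM and at 52.8 and 18.9 CPM.

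Fatty acid and ceramide genes of the barrier had smaller medians. Of 23 loci tested, 17 were higher and 2 lower in both pairs, with medians of 0.08 and 0.14. *Scd1*, the stearoyl-CoA desaturase, was at 391.9 and 150.1 CPM without siRNA and at 503.0 and 201.3 CPM in those labelled siSbsn. *Elovl6* had pairs of 0.28 and 0.61 and *Sptlc3* of 0.23 and 0.62. *Abca12*, the transporter that loads lipids into lamellar granules, had pairs of -0.19 and -0.01.

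All 8 basal and stress keratins and 7 of 9 suprabasal keratins were higher in both pairs, and the test without the pairing called none. All 8 had the order no siRNA 2, siSbsn 2, no siRNA 1, siSbsn 1 from low to high, so the groups overlapped at each. Medians of the basal and stress list were 0.16 and 0.31 in the pairs and 0.54 for number 1 minus number 2. Leaving out each library in turn gave it a median log2-fold change of -0.03 to 0.54. *Krt1* was at 213.9 CPM in no siRNA 1 and 29.7 CPM in no siRNA 2, and at 335.3 and 46.7 CPM in the libraries labelled siSbsn 1 and 2. The pairs were almost equal, 0.65 and 0.64, while number 1 exceeded number 2 by 2.83, the widest number difference among all loci tested. *Krt10*, its partner, was at 51.0 and 15.9 CPM and at 70.2 and 18.7 CPM, with pairs of 0.46 and 0.22. *Krt77*, another suprabasal keratin, was at 3.14 and 0.58 CPM and at 5.21 and 1.23 CPM. *Krt17*, the most abundant locus of each library, was at 24090 and 18770 CPM and at 26910 and 23070 CPM. *Krt5* had pairs of 0.11 and 0.31 and *Krt14* of 0.15 and 0.28. The median log2-fold change of the suprabasal list was 0.40, and it was 0.82 without no siRNA 1, 0.82 without the library labelled siSbsn 2, -0.17 without no siRNA 2 and -0.46 without the library labelled siSbsn 1.

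The precursors of the cornified envelope were divided. Of 41 loci tested, 14 were higher and 13 lower in both pairs, with medians of -0.02 and 0.03. *Flg*, filaggrin, was at 14.1 and 25.1 CPM without siRNA and at 10.3 and 17.0 CPM in those labelled siSbsn, lower in both pairs by 0.44 and 0.55. *Lor*, loricrin, was at 19.8 and 9.45 CPM and at 21.0 and 9.84 CPM. *Ivl*, involucrin, had pairs of -0.12 and 0.02. The small proline-rich genes went both ways: *Sprr2a3* had pairs of 0.49 and 0.70 and *Sprr2b* of 0.55 and 0.49, while *Sprr2d* had pairs of -0.30 and -0.53 and *Sprr2g* of -0.18 and -0.61. These genes are near-identical in sequence and only uniquely aligned reads were counted, so their levels are uncertain. *Tgm1*, the transglutaminase that cross-links the envelope, had pairs of 0.08 and 0.21. *Alox12b*, a lipoxygenase of the lipid envelope, was separated on the lower side, at 5.01 and 6.75 CPM and at 3.17 and 4.46 CPM.

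Of 16 desmosome genes 9 were higher and 1 lower in both pairs, with medians of 0.08 and 0.31. *Dsp*, desmoplakin, was at 7278 and 6689 CPM without siRNA and at 7257 and 8103 CPM in those labelled siSbsn. *Dsc1* and *Dsg1a*, desmosomal cadherins of the upper layers, had pairs of 0.15 and 0.60 and of 0.19 and 0.63. Among the 24 transcription factors of differentiation 14 were higher and 4 lower in both. *Barx2* was at 58.7 and 31.5 CPM and at 85.3 and 49.8 CPM, with pairs of 0.54 and 0.65. *Elf3* was at 16.3 and 31.0 CPM and at 12.9 and 19.0 CPM, with pairs of -0.32 and -0.69. *Klf4* and *Grhl3* had pairs of 0.12 and 0.17 and of -0.06 and 0.01. Of the 16 kallikreins and inhibitors 10 were higher and 0 lower in both.

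Large sets of housekeeping genes differed by little. Of 77 respiratory chain loci 63 were higher and 1 lower in both pairs, with medians of 0.10 and 0.07. Of 83 ribosomal protein loci 47 were higher and 7 lower, with medians of 0.07 in each pair. The median log2-fold change was 0.08 for the respiratory chain and 0.07 for the ribosomal proteins, and 0.04 for each with the trend on gene length removed. Leaving out each library in turn gave -0.02 to 0.20 for the respiratory chain, negative without the library labelled siSbsn 1. It gave -0.05 to 0.21 for the ribosomal proteins, negative without the library labelled siSbsn 1 and without no siRNA 2.

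**Figure D4:**
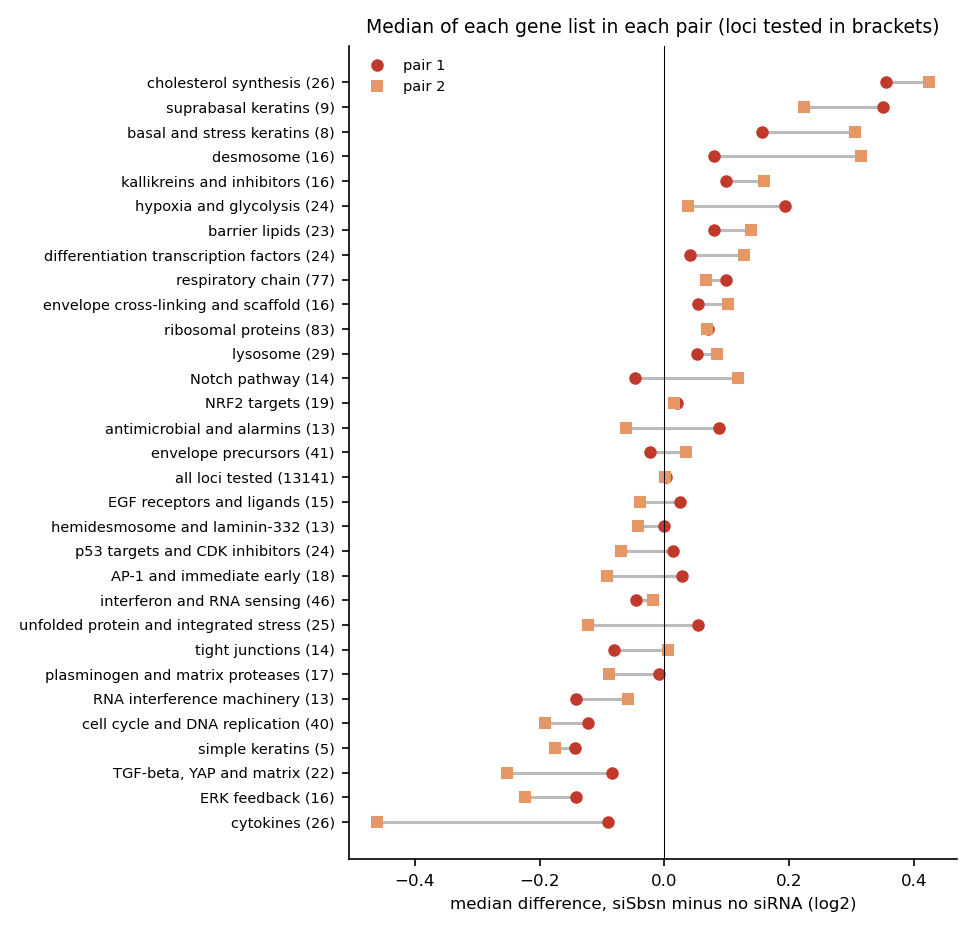
Median of each gene list in pair 1 (circles) and pair 2 (squares), as labelled siSbsn minus no siRNA in log2(CPM + 0.5), with the number of loci tested in brackets. Cholesterol synthesis lies highest at 0.36 and 0.42, cytokines lie lowest in pair 2 at -0.46, and all loci tested lie at 0.00.

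The remaining lists are given by their counts, and the test without the pairing called none of their members. Of 24 hypoxia and glycolysis genes 13 were higher and 1 lower in both pairs. Of 29 lysosome genes 20 were higher and 4 lower, and of 19 NRF2 targets 9 were higher and 4 lower. Of 13 antimicrobial genes and alarmins 6 were higher and 6 lower. Of 13 hemidesmosome and laminin genes 5 were higher and 7 lower, and of 5 simple keratins 0 were higher and 2 lower. Of 14 Notch pathway genes 4 were higher and 3 lower, of 15 EGF receptor and ligand genes 4 and 5, of 14 tight junction genes 3 and 5, and of 25 genes of the unfolded protein and integrated stress responses 6 and 5. The background was 33.0% higher and 31.9% lower.

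Genes that answer to foreign RNA gave no call without the pairing. Of 46 interferon and RNA sensing loci 19 were lower and 11 higher in both pairs, with medians of -0.05 and -0.02, and 0 were called or separated. *Isg15* was at 132.8 and 56.9 CPM without siRNA and at 147.8 and 56.9 CPM in those labelled siSbsn. *Ifit3* had pairs of -0.39 and -0.20 and *Oas2* of 0.49 and 0.07. Of 13 loci of the RNA interference machinery 7 were lower and 4 higher in both. *Ago2*, the slicer of the silencing complex, was at 134.7 and 211.1 CPM and at 88.0 and 201.3 CPM, with pairs of -0.61 and -0.07.

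The loci past 0.5 in both pairs on the higher side included several metabolic and membrane genes, named here by their size after the values were seen. *Ucp2*, a mitochondrial carrier, was at 244.8 and 70.9 CPM without siRNA and at 370.0 and 140.5 CPM in the libraries labelled siSbsn, with pairs of 0.59 and 0.98. *Phyhip* was at 56.6 and 14.9 CPM and at 86.7 and 34.7 CPM. *Slc45a3* was at 64.1 and 27.6 CPM and at 94.2 and 53.7 CPM. *Them5*, a thioesterase, had pairs of 0.63 and 1.28 at 26.6 and 2.84 CPM and at 41.5 and 7.59 CPM. At each of these the library labelled siSbsn 2 stayed below no siRNA 1, so the groups overlapped.

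**Figure D5:**
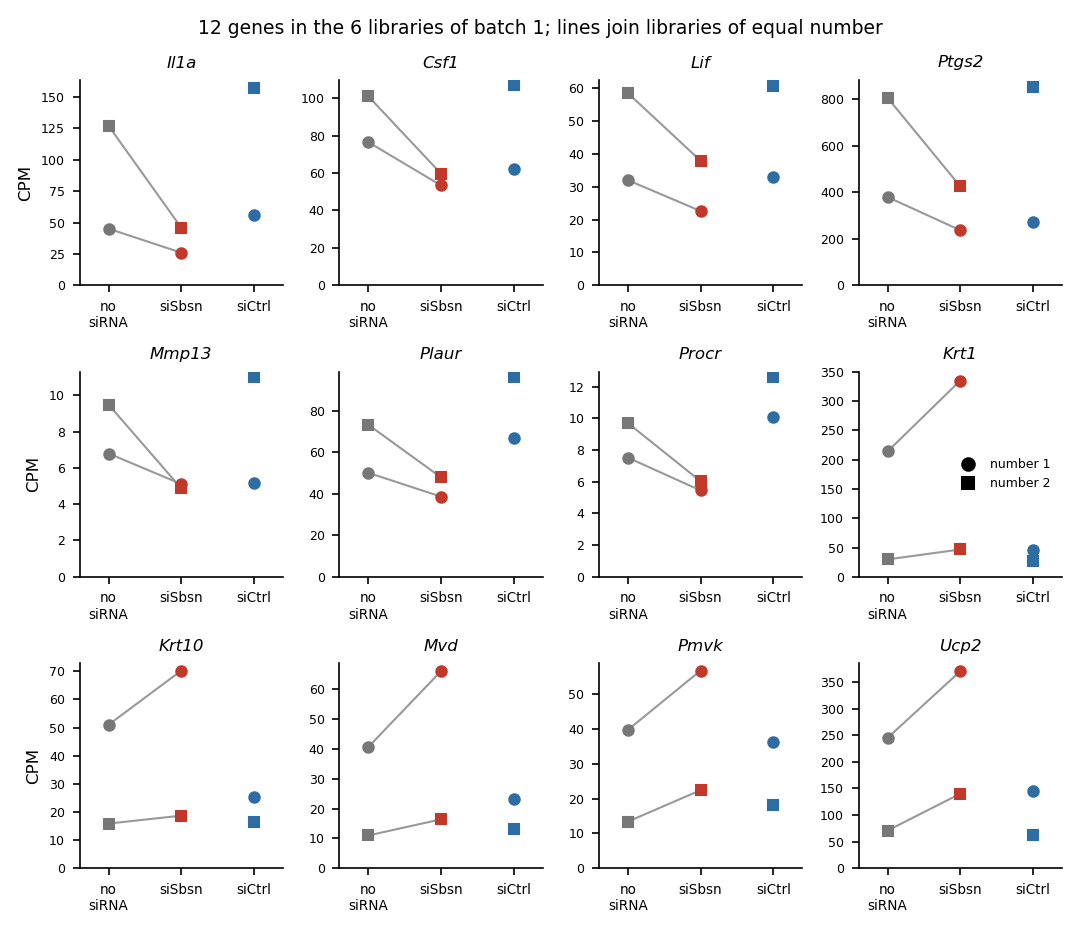
CPM (linear axes from 0) of 12 genes in the 6 libraries of batch 1, with circles for number 1 and squares for number 2. Lines join the no siRNA and labelled siSbsn libraries of equal number. Both lines slope down for the 7 genes from *Il1a* to *Procr* and both slope up for the 5 from *Krt1* to *Ucp2*, while *Krt1* in number 1 stands at 213.9 and 335.3 CPM against 29.7 and 46.7 CPM in number 2.

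Loci with the pattern of *Sbsn*, higher in pair 1 and lower in pair 2, were ranked by the smaller of the 2 sizes. The first 5 with a mean of at least 5 CPM were *Mir6236* (0.52 and -0.40), *Ptgds* (0.36 and -0.91), *Cdkn2d* (0.34 and -0.31), *Kif1a* (0.42 and -0.31) and *Cdca5* (0.31 and -0.30). *Ptgds*, the prostaglandin D synthase, was at 6.02 and 10.5 CPM without siRNA and at 7.86 and 5.33 CPM in those labelled siSbsn. On the opposite side stood *Bdkrb2*, *Rpl11*, *Fam83b*, *Brinp1* and *Spata5l1*, with pair 1 between -0.46 and -0.26 and pair 2 between 0.25 and 0.43. *Fam83b*, an adaptor of EGF receptor signalling, was at 137.9 and 116.8 CPM and at 115.0 and 158.1 CPM. By the size of pair 1 minus pair 2 the ranking differs. *Sbsn*, at 1.03, ranked 2 among the 9713 loci with a mean of at least 5 CPM, where the SD was 0.17. Among the 2464 loci with a mean of at least 100 CPM it ranked 1. Each pair rests on single libraries, and no test was run on these ranks.

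The siControl libraries of batch 1 give a second reference. They share their batch with both groups, and each comparison uses 2 of the same libraries, so values stand side by side. The SD of the log2 difference over loci was 0.73 between siControl 1 and labelled siSbsn 1. It was 0.35 between siControl 2 and labelled siSbsn 2. *Csf1* was at 61.9 and 106.6 CPM in siControl 1 and 2, and labelled siSbsn differed from siControl by -0.59 (SE 0.31, edgeR q = 0.436). *Ptgs2* was at 273.5 and 853.5 CPM and *Il1a* at 56.1 and 157.2 CPM. For each of these 3 genes both siControl libraries lay above the library of equal number labelled siSbsn. The same held for *Mmp13*, *Procr*, *Bcl2l15*, *Hpgd* and *Hmga2*, but not for every separated gene. *Dock4* was at 1.55 and 5.80 CPM in siControl, below the library of equal number labelled siSbsn each time. *Sox11* was at 6.56 and 11.9 CPM in siControl, below labelled siSbsn in number 1 and above it in number 2. *Krt1* was at 46.2 and 26.4 CPM in siControl.

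Batch 2 can be set beside these values, for siSbsn against siControl only. There *Csf1* differed by -0.37 (SE 0.08), *Mmp13* by -0.47 (SE 0.17) and *Procr* by -0.49 (SE 0.17), with edgeR q between 0.355 and 0.462. *Bcl2l15* differed by -0.65 (SE 0.15), *Hpgd* by -0.42 (SE 0.13) and *Sox11* by -0.31 (SE 0.12). *Hmga2* at 0.02 (SE 0.08) and *Dock4* at 0.09 (SE 0.22), both separated on the lower side in batch 1, were not below 0 there, and *Irx4* was at 0.20 (SE 0.09). None of these was called. Of the 25 cytokine loci fitted there 20 were below 0 and 5 above, with a median of -0.23, beside 6571 below and 6095 above 0 over all loci tested in both. Of 40 cell cycle loci 32 were below 0, with a median of -0.09. The cholesterol list had a median of -0.05 there and *Krt1* a difference of -0.79 (SE 0.14, edgeR q = 0.318), opposite in sign to batch 1.

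The cultures carried the keratinocyte markers in full and some markers of other skin cells. All 10 keratinocyte markers were tested, with a summed level of 40860 and 28390 CPM without siRNA and 44280 and 34410 CPM in those labelled siSbsn. All 10 fibroblast markers were detected, at 1095 and 585 CPM without siRNA and 1349 and 586 CPM in those labelled siSbsn, with the higher value in number 1 each time, led by *Col1a1*. All 8 melanocyte markers were detected, at 923 and 785 CPM and at 942 and 768 CPM. Of 12 immune markers 4 were tested, summing to at most 22.3 CPM, with *Cd207* at 0 counts in all 4 libraries. Of 6 endothelial markers 4 were tested, summing to at most 4.36 CPM. Of the 10 sebocyte and hair markers 2 were tested, with *Krt35* at 0 counts in all 4. Of the 8 muscle markers 5 were tested, at 1595 and 1170 CPM and at 1605 and 1162 CPM. The fibroblast sum moved with the number, as did the keratins and the cholesterol genes, and its part in their differences was not tested. In bulk RNA fewer cells of a type and less RNA per cell cannot be told apart.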

How the data were processed

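RNA-Seq was done on 12 libraries of mouse keratinocytes, of which the 2 labelled siSbsn and the 2 labelled no siRNA in batch 1 were compared. Per the labels and the submitters' processing notes, reads were aligned with STAR to mm10, and the authors deposited whole-number counts of uniquely aligned reads per locus, with overlapping genes joined into 1 locus. Of 21947 loci, 13141 passed edgeR's filter on low counts. CPM were computed with TMM library sizes, and pair differences with a pseudocount of 0.5 CPM. The test was edgeR's quasi-likelihood test (version 4.0.16, R 4.3.3), with calls at Benjamini-Hochberg q under 0.05 and a log2-fold change beyond 0.5 either way, and was tested on simulated data. Alternatives were DESeq2 (1.42.0), limma-voom (3.58.1), other size factors, filters, sample sets, a replicate block and leaving out each library. Named genes were those of the *Sbsn* locus, up to 12 separated loci each way by unadjusted p with a mean of at least 5 CPM, 5 loci each way with opposite pairs, for each list its separated and its 2 most abundant members, and 9 differentiation genes. Members and lists were chosen with earlier results of these data known. Replicate libraries differed by more than sampling noise (chi-square divided by its degrees of freedom, 93.2 and 83.9). The methods describe wells of cells with conditions in triplicate and do not say whether wells came from separate mice or cell preparations, so p-values measure the spread between these libraries, which may be technical. Some genes that these rules name are not reported here.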

Additional observations from a re-analysis of the deposited data

How the results depend on the processing

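No locus was called, higher or lower, by edgeR with 2 against 2 libraries, and the count remained 0 with RLE size factors, no filter on low counts, DESeq2, limma-voom, 6 or 12 libraries, the length trend removed, and without each library in turn (range 0 to 0). The labels share the numbers 1 and 2 between groups without saying what they mark, so the pairing is not established by the design. With the number as a replicate block, which leaves 1 residual degree of freedom, edgeR called 95 loci higher (0.723%) and 43 lower (0.327%). These included 8 of 26 cytokine loci (7 lower, with *Csf1*, *Lif* and *Cxcl1*), 3 of 26 cholesterol loci, all higher, and 2 of 9 suprabasal keratins (*Krt1* and *Krt77*, higher). They also included 3 of 17 plasminogen and protease loci, all lower, 1 each of the hypoxia and antimicrobial lists, higher, and 1 tight junction gene, lower. Envelope precursors went both ways, with 2 higher and 1 lower. Envelope cross-linking genes had 1 higher and 1 lower, as did the transcription factors of differentiation. Of the TGF-beta, YAP and matrix list 1 was higher. *Ptgs2*, *Mmp13*, *Procr* and *Bcl2l15* were called lower. The deviations of equal-numbered libraries from their group means correlated at 0.81 between no siRNA and siSbsn, 0.38 between no siRNA and siControl and 0.46 between siSbsn and siControl. Block alternatives chosen after seeing the data called 95 and 43 with RLE size factors, 126 and 61 without the filter, 40 and 11 with DESeq2, 102 and 44 with limma-voom, 60 and 27 with the length trend removed, 2 and 0 with 10 libraries, and 0 and 0 with the 6 libraries of batch 1. No library can be left out under the block. *Sbsn* under the block had a log2-fold change of -0.31 (SE 0.15, edgeR q = 0.269), and without the block leaving out each library gave -1.07 to 0.42, with the sign reversed without no siRNA 1 (0.11) and without the library labelled siSbsn 2 (0.42). Loci with separated groups, 23 higher and 53 lower, became 0 and 6 with a pseudocount of 2 CPM and 1 and 9 at a mean of at least 5 CPM. The cause of these changes was not tested.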
